A study of Mus musculus with 16 samples.

Results

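The 10 genes described here are markers of the blood vessels of the brain: Cldn5, Pecam1, Flt1, Kdr, Slco1a4, Abcb1a and Ly6c1 of endothelial cells, and Pdgfrb, Rgs5 and Vtn of pericytes. They were taken by name, each as the sum of all its transcripts, from 55045 genes in all, and they hold 41 of the 142435 transcripts in the matrices. RNA was sequenced from adult mice with a null allele of Upf3b (Upf3b-KO) and from littermate controls (Ctrl), in frontal cortex and in cerebellum, to ask whether the RNAs that depend on UPF3B differ between brain regions. UPF3B is a protein of the nonsense-mediated RNA decay (NMD) machinery, thought to be needed for the decay of some NMD targets and not others. Each of the 4 groups (Ctrl frontal cortex, Upf3b-KO frontal cortex, Ctrl cerebellum, Upf3b-KO cerebellum) had 4 libraries, and no treatment is named. The study's text gives 4 mice per genotype as the source of both tissues, so frontal cortex and cerebellum libraries share animals, but the labels do not tie libraries to mice.

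Endothelial cells line the vessels, and in the brain they form the blood-brain barrier: claudin-5 seals the junctions between them, and transporters in their membranes move nutrients in and drugs out. Vascular endothelial growth factor (VEGF) acts on them through the receptors encoded by Flt1 and Kdr. Pericytes sit on the capillary wall and depend on platelet-derived growth factor from the endothelium, which they sense through the receptor encoded by Pdgfrb.

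Values are read counts summed per gene and given as CPM, relative to the library's total count. The 15 libraries used held 27660078 to 35238677 counts, and the member genes had between 376 and 2737 counts in each of them. Library 1 of the Upf3b-KO cerebellum held 64981 counts in all and 14 over the 10 members, and 3 counts in it equal 46.2 CPM, so it was left out and that group has 3 libraries. Upf3b itself was at 14.2 to 15.7 CPM in Ctrl frontal cortex and 20.9 to 23.6 CPM in Ctrl cerebellum, against 0.229 to 0.857 CPM and 0.617 to 0.965 CPM in the Upf3b-KO libraries. The summed level of 6 cerebellar marker genes, granule and Purkinje cell genes among them, was 5084 to 5147 CPM in Ctrl cerebellum, 2030 to 2051 CPM in Upf3b-KO cerebellum and at most 34.96 CPM in frontal cortex. Libraries of one group were close: the CV of a member's CPM within a group ran from 0.893% to 11.04% (median 4.001%), and over the 21 pairs of libraries of a group the median squared difference per gene was 2.10 to 3.66 times what counting noise gives. The p-values measure this spread between libraries, and whether it covers the spread between animals was not tested. A gene passed where edgeR's quasi-likelihood test gave an adjusted p under 0.05 after Benjamini-Hochberg adjustment over all genes, and the study's own thresholds (adjusted p under 0.01 and over 2-fold) are given beside it.

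All 10 genes were detected in every one of the 15 libraries. Per length, as TPM computed from annotated transcript lengths, the highest level in Ctrl frontal cortex was that of Vtn (80.7 ± 1.71, SD, n = 4), followed by Ly6c1 at 76.3 and Slco1a4 at 55.3. Cldn5 (36.2), Rgs5 (21.7) and Flt1 (18.0) were intermediate. Pdgfrb (12.5), Pecam1 (11.8) and Abcb1a (11.2) followed, and the ranges of neighbours among these 3 overlapped. Kdr was lowest at 7.66. In Upf3b-KO frontal cortex Ly6c1 (93.1) stood above Vtn (73.3), whose range overlapped that of Slco1a4 (69.1). Rgs5 and Flt1 also overlapped there, as did Pecam1 and Pdgfrb. In Ctrl cerebellum Ly6c1 (76.1) and Vtn (76.1) could not be ordered, and neither could Abcb1a (10.9) and Pecam1 (10.7). In Upf3b-KO cerebellum Ly6c1 (84.7) and Slco1a4 (59.8) both lay above Vtn (47.6), and the neighbours Rgs5 (16.7) and Flt1 (15.6), and Kdr (8.42) and Abcb1a (8.17), overlapped.

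The question of the main comparison was how these genes differed between Upf3b-KO and Ctrl in each tissue. In frontal cortex Cldn5, Pecam1, Kdr, Slco1a4 and Ly6c1 rose and Abcb1a, Rgs5 and Vtn fell, by 1.12-fold (Pecam1) to 1.34-fold (Kdr) upward and to 0.791 to 0.873 of the Ctrl level downward. Among all 18195 genes tested, 28% were higher and 25.4% lower by the same rule, so 8 of 10 members stood against a background in which more genes passed than did not. In cerebellum Cldn5, Kdr, Slco1a4, Ly6c1 and Rgs5 rose and Abcb1a, Pdgfrb and Vtn fell, against 33.2% higher and 31.4% lower among 17754 genes. None of the 10 met the study's thresholds in either tissue, which 10.2% of all genes did in frontal cortex and 13.2% in cerebellum. The median log2 fold change of the 10 members was 0.13 in frontal cortex and 0.15 in cerebellum, and that of all genes was 0.004 and 0.007. The Upf3b-KO and Ctrl libraries did not overlap in CPM for 9 of the 10 members in each tissue (all but Pdgfrb in frontal cortex and all but Flt1 in cerebellum), and did not overlap for 48.4% and 63.5% of all genes. CPM uses library totals. In frontal cortex the log2 ratio of scaled to total library size averaged -0.0481 in Ctrl and 0.0274 in Upf3b-KO. In cerebellum it averaged -0.0312 and 0.0184. CPM thus shows rises in Upf3b-KO as larger, and falls as smaller, than the scaled fold changes do.

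**Figure D1:**
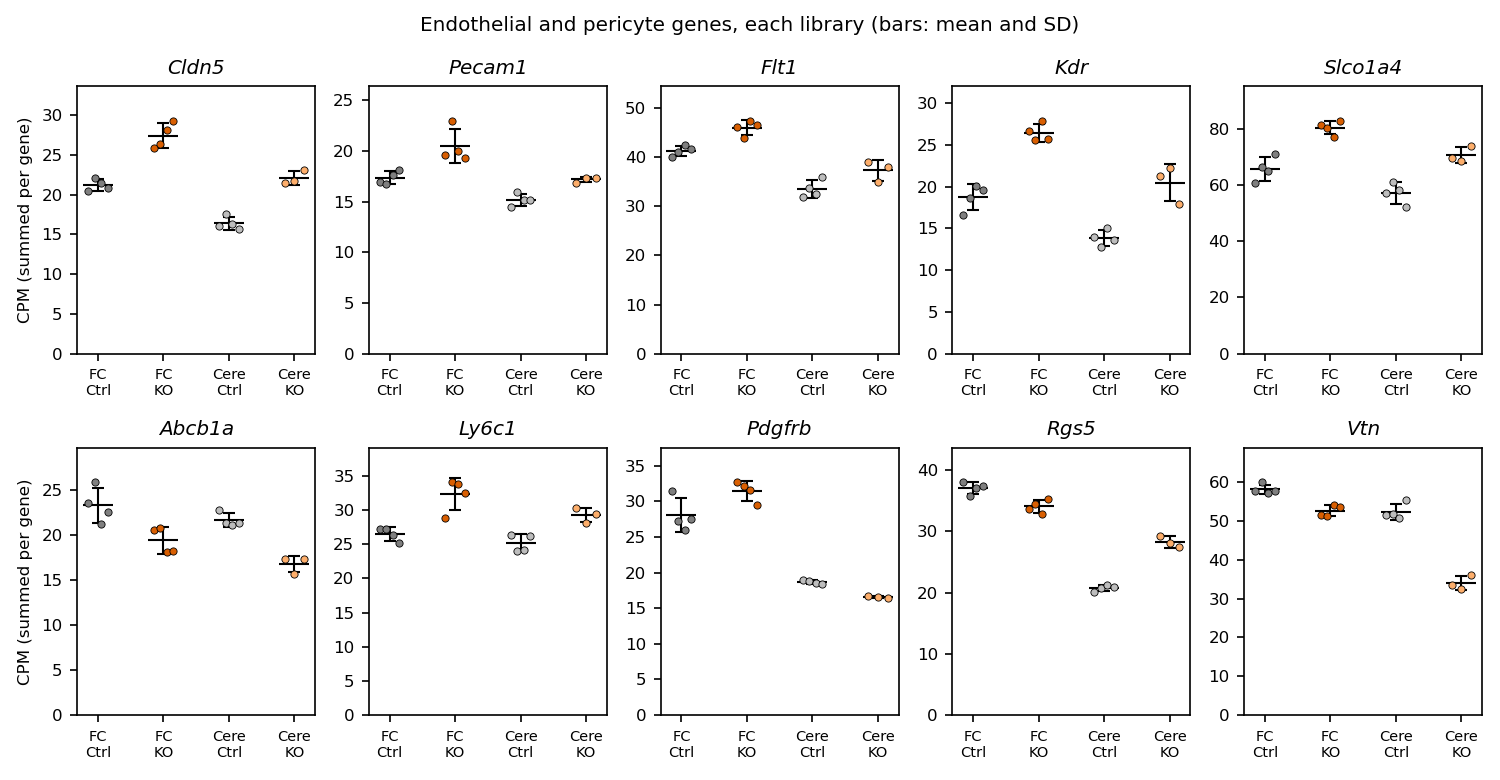
CPM per gene (linear axis from 0) for each member in the 4 groups, 1 point per library with the group mean and SD as bars (FC, frontal cortex; Cere, cerebellum; n = 4, and 3 for Upf3b-KO cerebellum). Kdr and Cldn5 sit higher in every Upf3b-KO library of both tissues, Abcb1a and Vtn lower, and Rgs5 lower in frontal cortex and higher in cerebellum.

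Cldn5 (chr16:18595597-18597012, plus strand, GRCm39), which encodes the main claudin of the barrier junction, measured 20.4, 22.1, 21.5 and 20.9 CPM in the Ctrl frontal cortex libraries and 25.8, 26.4, 28.1 and 29.3 CPM in the Upf3b-KO ones. All Upf3b-KO libraries were above all Ctrl libraries, with a log2 fold change of 0.29 ± 0.053 (SE, adjusted p = 6.44e-05, edgeR). In cerebellum it measured 16.1, 17.5, 16.3 and 15.6 CPM in Ctrl and 21.5, 21.7 and 23.0 CPM in Upf3b-KO. Again the groups did not overlap, and the log2 fold change was 0.38 ± 0.061 (adjusted p = 1.93e-05, edgeR).

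Pecam1 (chr11:106543689-106641454, minus strand), an adhesion molecule of endothelial cell contacts, was at 16.9, 16.8, 17.6 and 18.1 CPM in Ctrl frontal cortex and at 19.6, 23.0, 20.04 and 19.3 CPM in Upf3b-KO. Library 2 of the Upf3b-KO group was the highest, and the groups did not overlap. The log2 fold change was 0.16 ± 0.062 (adjusted p = 0.0337, edgeR), and the gene no longer passed without Ctrl library 1, 2 or 3 (adjusted p = 0.0766, 0.0883 and 0.0517) or without Upf3b-KO library 2 (0.10, adjusted p = 0.175). In cerebellum Pecam1 was at 14.4, 15.9, 15.2 and 15.2 CPM in Ctrl and 16.9, 17.3 and 17.4 CPM in Upf3b-KO, without overlap. Its log2 fold change of 0.13 ± 0.064 did not pass (adjusted p = 0.0842, edgeR), and with library totals in place of scaling factors it was 0.18 (adjusted p = 0.0194).

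Kdr (chr5:76093487-76139884, minus strand) encodes VEGF receptor 2, the main signalling receptor for VEGF on endothelium. It measured 16.6, 18.7, 20.1 and 19.6 CPM in Ctrl frontal cortex and 26.7, 25.6, 27.9 and 25.8 CPM in Upf3b-KO, all above Ctrl. The log2 fold change of 0.42 ± 0.059 was the largest rise among the members in that tissue (adjusted p = 2.71e-06, edgeR). In cerebellum it was at 13.9, 12.8, 15.1 and 13.6 CPM in Ctrl and at 21.3, 22.3 and 18.0 CPM in Upf3b-KO, again all above Ctrl. It was also the largest rise among the members, with a log2 fold change of 0.52 ± 0.078 (adjusted p = 1.11e-05, edgeR).

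Flt1 (chr5:147498414-147662826, minus strand) encodes VEGF receptor 1, which also exists as a soluble form that binds VEGF without signalling. Summed over transcripts it was at 40.1, 41.2, 42.5 and 41.7 CPM in Ctrl frontal cortex and 46.2, 44.0, 47.5 and 46.7 CPM in Upf3b-KO. The CPM groups did not overlap, but after scaling the log2 fold change of 0.08 ± 0.036 did not pass (adjusted p = 0.0715, edgeR). With library totals in place of the scaling factors, an alternative chosen after the data were seen, it was 0.16 (adjusted p = 0.00102, edgeR), and without Upf3b-KO library 2 it was 0.10 (adjusted p = 0.0331). In cerebellum Flt1 was at 31.97, 33.9, 32.5 and 35.9 CPM in Ctrl and 39.1, 34.96 and 38.1 CPM in Upf3b-KO. These groups overlapped, with a log2 fold change of 0.11 ± 0.051 (adjusted p = 0.0768, edgeR) that passed with library totals (0.16, adjusted p = 0.0114) and without Ctrl library 4 (0.14, adjusted p = 0.0273) or Upf3b-KO library 3 (0.15, adjusted p = 0.0215).

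Slco1a4 (chr6:141751165-141802036, minus strand), an organic anion carrier of the barrier, was at 60.7, 66.4, 65.2 and 71.4 CPM in Ctrl frontal cortex and 81.5, 80.6, 77.3 and 83.0 CPM in Upf3b-KO. It rose by 0.22 ± 0.038 on the log2 scale (adjusted p = 5.51e-05, edgeR). In cerebellum it was at 57.2, 61.3, 58.2 and 52.2 CPM in Ctrl and 69.7, 68.8 and 73.9 CPM in Upf3b-KO, a log2 fold change of 0.26 ± 0.044 (adjusted p = 4.82e-05, edgeR). In neither tissue did the groups overlap.

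Abcb1a (chr5:8710022-8798575, plus strand) encodes P-glycoprotein, the efflux pump that keeps many drugs out of the brain, and it was the only endothelial member that fell. It measured 23.6, 25.9, 21.2 and 22.6 CPM in Ctrl frontal cortex and 20.5, 20.8, 18.1 and 18.2 CPM in Upf3b-KO. The groups lay close without overlapping, and the log2 fold change was -0.34 ± 0.065 (adjusted p = 0.000139, edgeR). In cerebellum it was at 22.8, 21.4, 21.2 and 21.3 CPM in Ctrl and at 17.4, 15.7 and 17.3 CPM in Upf3b-KO, all below Ctrl, a log2 fold change of -0.42 ± 0.060 (adjusted p = 5.77e-06, edgeR). The main transcript of Abcb1a shares 15.4% of its 50-base stretches with transcripts of its neighbour Abcb1b, so part of its count depends on how reads were divided between these genes.

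Ly6c1 (chr15:74915847-74920686, minus strand), a membrane-anchored surface protein used as a marker of brain endothelium, was at 27.2, 27.3, 26.4 and 25.1 CPM in Ctrl frontal cortex and 28.9, 34.0, 33.7 and 32.6 CPM in Upf3b-KO. The lowest Upf3b-KO library lay just above the highest Ctrl library, and the log2 fold change was 0.21 ± 0.052 (adjusted p = 0.00186, edgeR). In cerebellum the values were 26.4, 24.1, 24.2 and 26.2 CPM in Ctrl and 30.2, 28.2 and 29.5 CPM in Upf3b-KO, with a log2 fold change of 0.17 ± 0.052 (adjusted p = 0.00874, edgeR). Of the 50-base stretches of its transcripts Ly6c1-201 and Ly6c1-202, 36.7% and 38.1% also occur in other genes, mostly in Ly6c2 (31.7% and 31.3%), so the level of Ly6c1 depends on how shared reads were divided.

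Pdgfrb (chr18:61178212-61218133, plus strand), the receptor through which pericytes sense platelet-derived growth factor, was at 31.5, 27.2, 26.0 and 27.6 CPM in Ctrl frontal cortex and 32.7, 32.2, 31.6 and 29.5 CPM in Upf3b-KO. Ctrl library 1 lay within the Upf3b-KO range, and the log2 fold change of 0.09 ± 0.055 did not pass (adjusted p = 0.172, edgeR). Without that library it was 0.15 (adjusted p = 0.0172), and with library totals 0.17 (adjusted p = 0.0132). In cerebellum Pdgfrb was at 19.01, 18.8, 18.6 and 18.4 CPM in Ctrl and at 16.7, 16.5 and 16.4 CPM in Upf3b-KO, without overlap. It fell by 0.22 ± 0.058 on the log2 scale there (adjusted p = 0.00220, edgeR).

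Rgs5 (chr1:169483036-169524887, plus strand), a regulator of G-protein signalling and a common pericyte marker, was at 37.98, 35.7, 37.1 and 37.4 CPM in Ctrl frontal cortex and 33.7, 34.4, 32.8 and 35.3 CPM in Upf3b-KO. It fell there, with a log2 fold change of -0.20 ± 0.040 (adjusted p = 0.000278, edgeR). In cerebellum it was at 20.1, 20.7, 21.3 and 21.0 CPM in Ctrl and at 29.3, 28.1 and 27.4 CPM in Upf3b-KO. It rose there, with a log2 fold change of 0.39 ± 0.051 (adjusted p = 1.36e-06, edgeR), and in neither tissue did the groups overlap.

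Vtn (chr11:78388717-78393156, plus strand) encodes vitronectin, a matrix protein that brain pericytes make. It measured 57.7, 59.9, 57.3 and 57.8 CPM in Ctrl frontal cortex and 51.6, 51.3, 54.2 and 53.6 CPM in Upf3b-KO, a log2 fold change of -0.22 ± 0.032 (adjusted p = 4.52e-06, edgeR). In cerebellum the Ctrl libraries were at 51.6, 51.7, 50.8 and 55.5 CPM and the Upf3b-KO libraries at 33.6, 32.4 and 36.1 CPM, far below them. This was the largest difference of any member, to 0.628 of the Ctrl level, with a log2 fold change of -0.67 ± 0.045 (adjusted p = 1.22e-10, edgeR).

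A fit over the 15 libraries with an interaction term asked whether the effect of genotype was unequal in the tissues. The 3 pericyte genes passed and the 7 endothelial genes did not, against 24.1% of 19796 genes higher in cerebellum and 24.1% lower. This split held for the members and not for the wider lists: 2 of 12 further pericyte genes passed (1 higher, 1 lower) and 6 of 18 further endothelial core genes did (4 higher, 2 lower), among them Egfl7 (0.88). The fit took the 15 libraries as independent, although the tissues share animals. Rgs5 changed in opposite directions, and its interaction (the cerebellar minus the cortical log2 fold change) was 0.58 ± 0.061 (adjusted p = 9.95e-09, edgeR). Vtn fell in both tissues and further in cerebellum (-0.46 ± 0.054, adjusted p = 5.66e-08, edgeR). For Pdgfrb the interaction was -0.33 ± 0.081 (adjusted p = 0.00138, edgeR). The interactions of the endothelial genes lay between -0.09 (Abcb1a, SE 0.093) and 0.08 (Kdr, SE 0.10), and their adjusted p between 0.453 and 0.890, which does not show that the tissues were alike. The same 3 genes passed in every fit that left out 1 of the 15 libraries. They also passed with a block that took same-numbered libraries of a genotype as the same animal, a pairing that the labels do not give.

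**Figure D2:**
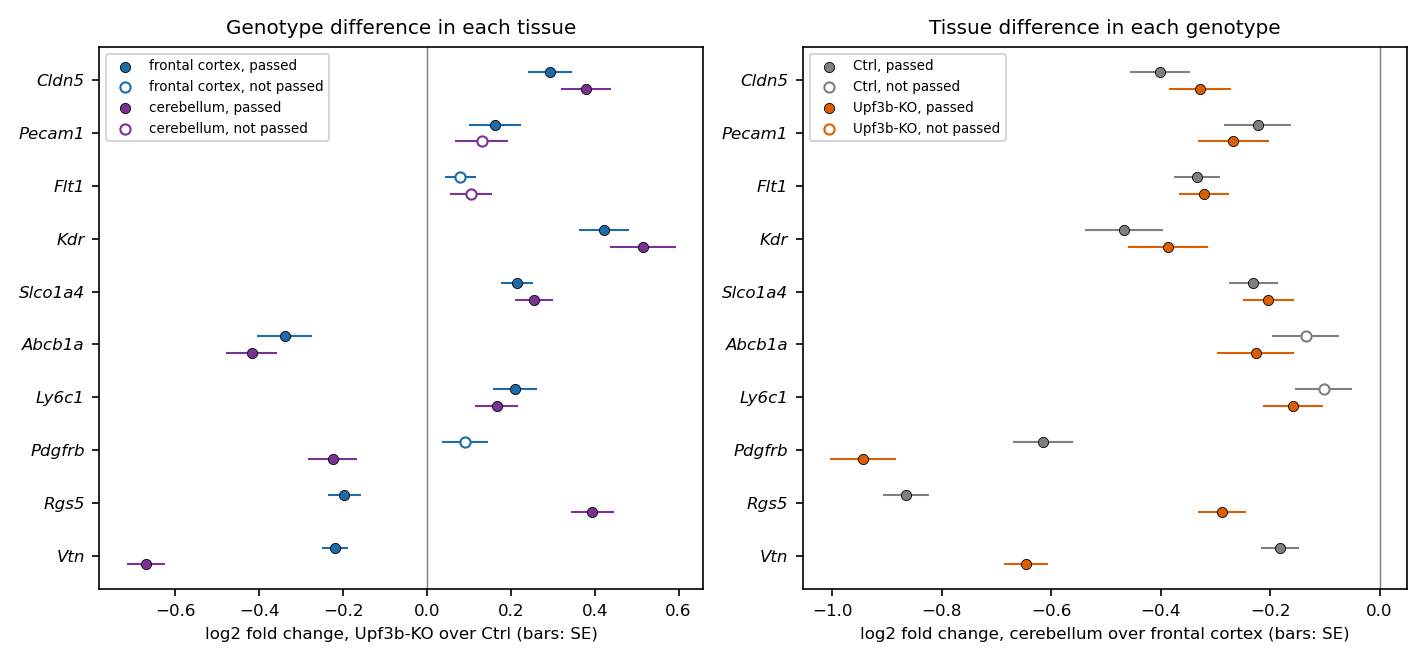
Log2 fold changes with their standard errors for the 10 members, on the left Upf3b-KO over Ctrl in each tissue and on the right cerebellum over frontal cortex in each genotype, filled where the adjusted p was under 0.05. The pairs of points lie close for the 7 endothelial genes on the left and apart for Pdgfrb, Rgs5 and Vtn, and on the right all points are below 0.

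Between the tissues, all 10 members had lower estimates in cerebellum than in frontal cortex in both genotypes. In Ctrl, 8 of 10 passed, where 35.8% of 19796 genes were higher and 37.4% lower. The largest differences were those of Rgs5 (-0.87 ± 0.042, adjusted p = 4.19e-16, edgeR), at 37.1 CPM in cortex and 20.8 CPM in cerebellum, and of Pdgfrb (-0.62 ± 0.054, adjusted p = 1.31e-10, edgeR). Kdr (-0.47), Cldn5 (-0.40), Flt1 (-0.33), Slco1a4 (-0.23), Pecam1 (-0.22) and Vtn (-0.18) also passed, and Abcb1a (-0.14, adjusted p = 0.0521, edgeR) and Ly6c1 (-0.10, adjusted p = 0.0817, edgeR) did not. Both of these passed with median-of-ratios scaling (adjusted p = 0.0226 and 0.0308, edgeR). Of 23 alternative fits, that one included, Abcb1a passed in 12 and Ly6c1 in 4. In Upf3b-KO all 10 passed, where 33.5% of genes were higher and 34.6% lower. There the order changed: Pdgfrb (-0.94 ± 0.060) and Vtn (-0.65 ± 0.041) led, and Rgs5 was at -0.29 ± 0.044. Abcb1a and Ly6c1 no longer passed there without Upf3b-KO cerebellum library 3 (adjusted p = 0.0605 and 0.0933). Of the 87 further vessel genes described below, 18 were higher and 48 lower in cerebellum in Ctrl, and 19 and 49 in Upf3b-KO. Of the 8 tight junction genes among them, 5 were higher and 3 lower in each genotype. In bulk tissue, fewer cells of a type and less RNA per cell cannot be told apart, here and in the comparison of genotypes. The 2 comparisons of tissues each use the libraries of the genotype comparisons, and so are not independent of them.

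Of the 41 member transcripts, 18 had a mean of at least 0.5 CPM in a group, 23 did not, and 3 were at 0 in all 15 libraries. None of the 41 is annotated as an NMD transcript. None has an annotated stop codon at least 50 nt before its last exon junction, a feature that marks candidate NMD targets. Transcripts without an annotated stop codon could not be assessed for this feature. GENCODE vM39 annotates 240 transcripts of these genes, and those outside the matrices were not measured. Of the 41, 11 are annotated as retained introns, and none of these exceeded a group mean of 0.457 CPM. Cldn5-201, Kdr-201, Rgs5-201, Vtn-201, Abcb1a-201 and Pdgfrb-201 each held at least 94.2% of their gene's counts in every library, so that transcript and gene are nearly the same measurement. Annotated non-coding genes overlap Flt1 (Gm72610 and Gm72626), Kdr (Gm32727) and Abcb1a (Gm31157, Gm42684 and Gm42686), and as the use of strand in counting is not stated, reads of these and of the members may not be separable. Slco1a4-203 held 76.2% to 86.4% of the Slco1a4 counts. Across all transcripts 8.67% were higher and 7.68% lower in Upf3b-KO frontal cortex (42318 tested), and 12.3% higher and 10.3% lower in cerebellum (44388 tested). The filter on low counts left fewer than the 41 member transcripts for testing, and of those tested 8 passed in frontal cortex and 7 in cerebellum. Those of Cldn5, Kdr, Rgs5, Vtn, Abcb1a and Slco1a4 (Slco1a4-203) passed in both tissues in the direction of their genes, and that of Pdgfrb passed in cerebellum. In frontal cortex Rgs5-201 did not pass with the library number as a block or with library totals, nor Abcb1a-201 with library totals. Most of the cerebellar calls were lost in other fits: Rgs5-201 (adjusted p = 0.0343, edgeR) and Vtn-201 (0.00517) alone passed with the library number as a block, and Kdr-201 (0.0264) and Vtn-201 (0.0423) alone with the shallow library included.

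Flt1 was the only member with transcripts that passed in opposite directions, in frontal cortex. Flt1-202 is the full-length receptor, with a coding sequence of 1333 codons including the stop, and Flt1-203 a shorter form of 688 codons that reads on into the intron after exon 13, as the soluble receptor does. The transcripts are identical until base 2250. On the minus strand of GRCm39, Flt1-203 goes on at chr5:147576034, within its exon 13, and Flt1-202 at chr5:147571333, the start of exon 14. The junctions are shown because they are what tells the isoforms apart. The 20 bases before the point are shared and in lower case, and the 20 that follow in each transcript are in capitals.
Flt1-202: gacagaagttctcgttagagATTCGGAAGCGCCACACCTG
Flt1-203: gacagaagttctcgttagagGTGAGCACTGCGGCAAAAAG

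Flt1-202 was at 14.3, 13.6, 14.5 and 13.3 CPM in Ctrl frontal cortex and at 12.2, 11.6, 11.4 and 12.3 CPM in Upf3b-KO. It fell by 0.29 ± 0.066 on the log2 scale (adjusted p = 0.0205 over all transcripts, edgeR), and did not pass in 4 other fits: with library totals, with the library number as a block, with no filter on low counts, or with all 15 libraries in the fit. Flt1-203 was at 22.8, 24.4, 25.6 and 24.4 CPM in Ctrl frontal cortex and at 30.8, 30.1, 33.0 and 29.6 CPM in Upf3b-KO. It rose by 0.28 ± 0.053 (adjusted p = 0.00831, edgeR) and also passed in those 4 fits. The groups did not overlap for either transcript. The share of Flt1 counts given to Flt1-202 was 33.6% ± 1.61 (SD, n = 4) in Ctrl and 25.8% ± 1.16 (n = 4) in Upf3b-KO, and it restates the transcript values. An exact permutation test of the share, chosen after those values were seen, did not pass in frontal cortex after adjustment over 2 tissues (two-sided p = 0.0286, adjusted p = 0.0571). As the groups of both transcripts were already apart, that p was bound to be the smallest that 4 against 4 allows, and nothing rests on it. In cerebellum neither transcript passed. Flt1-202 was at 9.84 ± 1.52 CPM (SD, n = 4) in Ctrl and 11.4 ± 0.874 CPM (n = 3) in Upf3b-KO, with adjusted p = 0.376 (edgeR). Flt1-203 was at 20.8 ± 1.73 and 23.95 ± 2.83 CPM, with adjusted p = 0.246 (edgeR), and the share of Flt1-202 was 29.2% and 30.5% (exact permutation p = 0.686). The difference between the tissues in these shares was not tested. Flt1-201, which has no annotated coding sequence, held 0.545% to 10.6% of the counts.

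**Figure D3:**
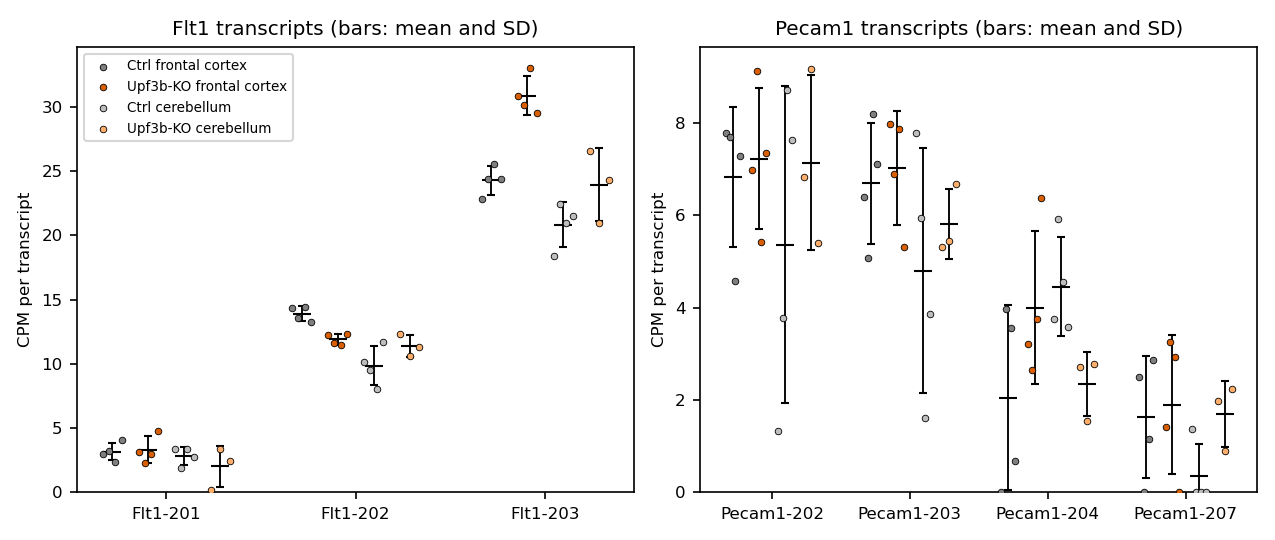
CPM per transcript (linear axis from 0) for Flt1 on the left and Pecam1 on the right, 1 point per library with mean and SD, coloured by group. In frontal cortex Flt1-203 lies higher and Flt1-202 lower in every Upf3b-KO library, whereas the Pecam1 transcripts scatter widely within each group.

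For Pecam1 and Ly6c1 the counts moved between similar transcripts from library to library. Pecam1-202 held from 9.18% to 57.5% of the Pecam1 counts within the Ctrl cerebellum alone, and Pecam1-203 from 10.7% to 53.9%. Pecam1-204 was at 2.05 ± 2.01 CPM in Ctrl frontal cortex and 3.995 ± 1.66 CPM in Upf3b-KO, and at 4.46 ± 1.07 and 2.34 ± 0.696 CPM in cerebellum. Pecam1-207 ranged from 0 to 3.25 CPM. None of the 4 passed in either tissue, although with DESeq2 Pecam1-204 fell in cerebellum (-0.94, adjusted p = 0.00923). Ly6c1-202 ranged from 0 to 10.1 CPM and Ly6c1-201 from 18.0 to 33.5 CPM, and neither passed. Slco1a4-201 (7.26% to 18.8% of the gene's counts) and Slco1a4-202 (4.19% to 7.17%) did not pass either.

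The promoters of 8 of the 10 members were found in RefSeq (GRCm38.p6), 250 bases before to 50 after the annotated start. AGGAAG, a core of the sites bound by ETS factors, which are central to endothelial gene expression, was searched on both strands. It was present in 4 of the 8 genes (Flt1, Slco1a4, Abcb1a and 1 of the 2 starts of Ly6c1) and in 35.4% of all 32851 promoters. CTTTGAT, a site of the Wnt effectors of the TCF family, was in none of the 8 and in 3.7% of all promoters. Promoters of the largest rise (Kdr), of its relative Flt1 and of the endothelial gene that fell (Abcb1a) are given 5′ to 3′ along the gene, with matches to AGGAAG or its reverse complement in capitals.
Kdr promoter, chr5:75978406-75978705, minus strand: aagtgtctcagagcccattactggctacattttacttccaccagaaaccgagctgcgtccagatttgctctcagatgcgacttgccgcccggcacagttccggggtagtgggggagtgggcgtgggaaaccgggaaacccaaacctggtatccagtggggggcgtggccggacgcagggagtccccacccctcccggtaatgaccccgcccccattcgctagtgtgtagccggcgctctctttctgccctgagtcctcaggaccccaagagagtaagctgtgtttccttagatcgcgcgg
Flt1 promoter, chr5:147725962-147726261, minus strand: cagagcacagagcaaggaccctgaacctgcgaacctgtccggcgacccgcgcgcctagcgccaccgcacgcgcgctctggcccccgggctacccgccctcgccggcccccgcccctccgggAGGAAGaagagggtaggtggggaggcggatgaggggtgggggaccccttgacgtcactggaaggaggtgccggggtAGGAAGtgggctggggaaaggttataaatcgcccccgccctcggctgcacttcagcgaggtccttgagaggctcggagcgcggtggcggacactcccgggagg
Abcb1a promoter, chr5:8566841-8567140, plus strand: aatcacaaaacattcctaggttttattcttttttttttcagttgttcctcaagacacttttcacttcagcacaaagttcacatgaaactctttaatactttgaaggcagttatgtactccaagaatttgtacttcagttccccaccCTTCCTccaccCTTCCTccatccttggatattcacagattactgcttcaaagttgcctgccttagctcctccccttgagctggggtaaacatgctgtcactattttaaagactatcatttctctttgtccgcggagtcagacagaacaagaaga

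Within these windows Kdr held no match, Flt1 held 2 and Abcb1a held 2. A match is a description of the sequence and no evidence that a factor binds there.

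To place the 10 members among other vessel genes, 87 further genes were taken from 8 lists. In frontal cortex 38 rose, 9 fell and 40 did not pass (median log2 fold change 0.12). In cerebellum 39 rose, 17 fell and 30 did not pass (median 0.17, 86 tested). By the study's thresholds 5 of the 87 passed in frontal cortex (4 higher, 1 lower) and 11 in cerebellum (9 higher, 2 lower). The percentages of all genes that were higher and lower at an adjusted p under 0.05 are those given for the members above. By the study's thresholds, 1664 of 18195 genes were higher and 192 lower in frontal cortex. In cerebellum 1830 of 17754 genes were higher and 508 lower.

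Among 18 other endothelial core genes, 8 rose and 1 fell in frontal cortex and 10 rose and none fell in cerebellum. Egfl7, a secreted endothelial protein, was at 27.1 ± 0.591 CPM in Ctrl and 32.2 ± 1.42 CPM in Upf3b-KO frontal cortex, and at 11.7 ± 0.617 and 25.4 ± 0.858 CPM in cerebellum. Its log2 fold change was 0.17 (adjusted p = 0.00248) and 1.07 (adjusted p = 1.72e-11, edgeR). Eng, a co-receptor for TGF-beta, rose by 0.36 and 0.66, and Itm2a by 0.11 and 0.30. Nos3, the endothelial nitric oxide synthase, rose in cerebellum (0.67, adjusted p = 1.87e-05, edgeR) and was at 0.16 in frontal cortex (adjusted p = 0.146). Cdh5, which encodes VE-cadherin, did not pass in either tissue (adjusted p = 0.719 and 0.342, edgeR).

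Barrier transporters beside Slco1a4 and Abcb1a moved in both directions: 6 of 12 rose and 3 fell in frontal cortex, and 7 rose and 3 fell in cerebellum. Slco1c1, a thyroid hormone carrier, was at 57.8 ± 1.34 and 105.5 ± 1.57 CPM in Ctrl and Upf3b-KO frontal cortex and at 26.4 ± 2.18 and 56.2 ± 1.16 CPM in cerebellum. Abcc4, an efflux pump, rose by 0.90 and 0.66 on the log2 scale and the amino acid carrier Slc38a5 by 0.69 and 1.33. Mfsd2a, the lipid carrier that keeps transcytosis low in barrier endothelium, rose in cerebellum, from 5.82 ± 0.733 to 25.5 ± 1.32 CPM (log2 fold change 2.08, adjusted p = 7.95e-14, edgeR). In frontal cortex it was at 15.8 ± 1.78 and 17.2 ± 1.28 CPM (0.05, adjusted p = 0.624). Slc7a5, the large neutral amino acid carrier, fell by 0.53 and 0.82. Slc2a1, the glucose carrier GLUT1, rose by 0.16 (adjusted p = 1.50e-05, edgeR) and 0.45.

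**Figure D4:**
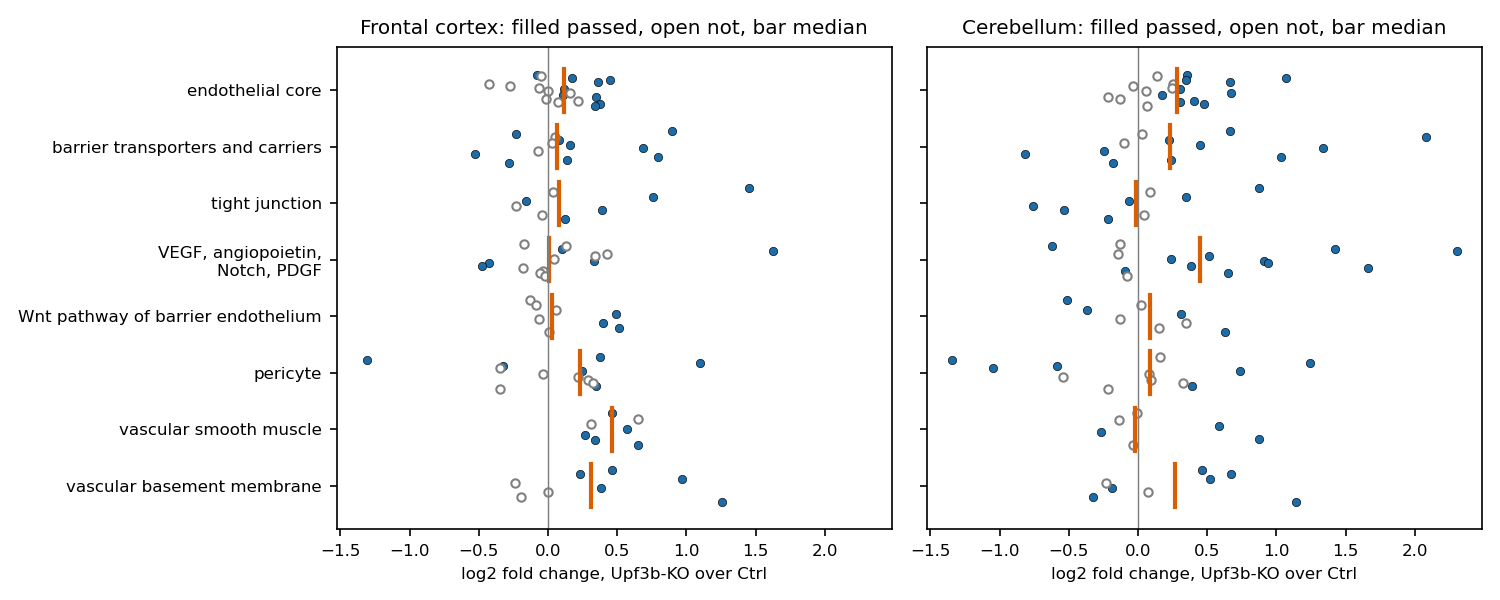
Log2 fold change of Upf3b-KO over Ctrl for each gene of the 8 vessel lists, frontal cortex on the left and cerebellum on the right, filled where the adjusted p was under 0.05, with the list median as a bar. List medians lie between 0.01 and 0.47 in frontal cortex and between -0.02 and 0.45 in cerebellum.

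Of 8 junction genes beside Cldn5, 4 rose and 1 fell in frontal cortex and 2 rose and 4 fell in cerebellum. Cgnl1, a junction-associated protein of the cingulin family, rose by 1.45 and 0.87 and F11r, which encodes JAM-A, by 0.76 and 0.35. Ocln, occludin, rose in frontal cortex (0.39, adjusted p = 2.59e-06, edgeR) and fell in cerebellum (-0.53, adjusted p = 9.54e-10), with an interaction of -0.94. Marveld2, tricellulin, fell in cerebellum (-0.76) and was at -0.23 in frontal cortex (adjusted p = 0.398, edgeR).

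Among the 14 ligands, receptors and signals of the VEGF, angiopoietin, Notch, apelin and PDGF pathways, 3 rose and 2 fell in frontal cortex and 9 rose and 2 fell in cerebellum. Vegfa, the main ligand of Kdr and Flt1, was at -0.03 (adjusted p = 0.444, edgeR) and fell in cerebellum by 0.09 (adjusted p = 0.0153). Pgf, a ligand of Flt1, rose in cerebellum from 2.16 ± 0.356 to 7.01 ± 0.566 CPM (1.66, adjusted p = 4.45e-09, edgeR), as did Vegfb (0.65). Nrp1, a co-receptor for VEGF that neurons also express, fell in frontal cortex (-0.42) and rose in cerebellum (0.94). Apln, the ligand apelin, rose by 0.10 and 1.42, and its receptor gene Aplnr by 1.63 and 2.30 from levels of 0.310 and 0.501 CPM. Pdgfb, the ligand of Pdgfrb, fell in frontal cortex from 15.02 ± 0.434 to 11.4 ± 0.185 CPM (-0.48, adjusted p = 2.06e-06, edgeR) and rose in cerebellum from 2.59 ± 0.129 to 3.50 ± 0.147 CPM (0.38, adjusted p = 0.0223). In the Wnt pathway genes of barrier endothelium, 3 of 8 rose in frontal cortex, and 2 rose and 2 fell in cerebellum. Fzd4, the Norrin receptor, rose in both (0.49 and 0.31). Tspan12, its co-receptor component, rose in cerebellum (0.63), Reck in frontal cortex (0.51), and Adgra2, the GPR124 receptor, fell in cerebellum (-0.51).

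The other genes of the vessel wall also moved both ways. Of 12 further pericyte genes, 4 rose and 2 fell in frontal cortex and 3 rose and 3 fell in cerebellum. Art3 rose (1.10 and 1.24), as did the proteoglycan gene Cspg4 (0.25 and 0.74), and Anpep, aminopeptidase N, fell (-1.31 and -1.35). Atp13a5 fell as well (-0.32 and -0.59), and Cox4i2 fell in cerebellum (-1.05). Of 7 smooth muscle genes 5 rose and none fell in frontal cortex. Of the 6 tested in cerebellum 2 rose and 1 fell. Myh11, smooth muscle myosin, rose in both tissues (0.57 and 0.58), as did Mylk, myosin light chain kinase (0.34 and 0.87). Acta2, smooth muscle actin, rose in frontal cortex (0.47), and in cerebellum its level was 4.51 ± 0.356 and 4.66 ± 0.554 CPM (adjusted p = 0.982, edgeR). Tagln, transgelin, likewise rose in frontal cortex (0.65) and was at -0.04 in cerebellum (adjusted p = 0.854). Of 8 basement membrane genes 5 rose and none fell in frontal cortex, and 4 rose and 2 fell in cerebellum. The collagen IV genes Col4a1 (0.46 and 0.46) and Col4a2 (0.23 and 0.67) and the nidogen gene Nid2 (1.25 and 1.14) rose in both, and the laminin gene Lamb1 rose in frontal cortex (0.39) and fell in cerebellum (-0.19).

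Markers of other cells moved with genotype in the same libraries. All 10 choroid plexus epithelial genes rose over 2-fold in both tissues, and their summed level was 26.1 to 26.9 CPM in Ctrl and 2320 to 2371 CPM in Upf3b-KO frontal cortex, and 26.99 to 30.6 CPM and 1459 to 1478 CPM in cerebellum. Ttr, transthyretin, made up 1848 and 1209 CPM of the Upf3b-KO levels. None of the 10 was at 0 in every library of a group, but some had Ctrl libraries at 0. Slc4a5 averaged 0.0764 CPM in Ctrl frontal cortex and Aqp1 0.0548 CPM in Ctrl cerebellum. Plvap, a marker of fenestrated vessels such as those of the choroid plexus, fell in both tissues (-0.28 and -0.41). Esm1, the other fenestrated vessel gene, was at or below 0.590 CPM in each of the 15 libraries, with a log2 fold change of 0.51 in cerebellum (adjusted p = 0.365, edgeR) and too few counts for a test in frontal cortex. Of 8 fibroblast and meningeal genes, 6 fell in frontal cortex and 7 in cerebellum, with none higher, and their summed level was 144.1 to 155.1 CPM in Ctrl and 83.9 to 91.5 CPM in Upf3b-KO frontal cortex (109.4 to 117.7 CPM and 76.5 to 82.4 CPM in cerebellum). Most of the difference between the frontal cortex sums lay in Dcn (72.7 ± 4.13 CPM in Ctrl and 25.6 ± 1.55 CPM in Upf3b-KO). The 5 red cell genes fell in frontal cortex (489 to 504 CPM and 422 to 433 CPM) and rose in cerebellum (1255 to 1325 CPM and 2402 to 2451 CPM). All 6 oligodendrocyte genes rose in both tissues, with summed levels of 7556 to 7641 CPM in Ctrl and 10220 to 10300 CPM in Upf3b-KO frontal cortex, and 6208 to 6328 CPM and 14390 to 14490 CPM in cerebellum. Of 7 microglial genes 6 rose in cerebellum, and 1 rose and 1 fell in frontal cortex. All 6 astrocyte genes fell in frontal cortex, and 4 fell and 2 rose in cerebellum. Their summed level was 4176 to 4234 CPM in Ctrl and 3313 to 3343 CPM in Upf3b-KO frontal cortex. The cerebellar sums were 4492 to 4548 CPM and 3161 to 3185 CPM, a difference carried by Slc1a3, a glutamate transporter (2755 ± 15.7 and 1297 ± 9.97 CPM), while Gfap and Slc1a2 rose. Of 6 neuronal genes 3 rose and 3 fell in each tissue. Of 6 frontal cortex markers 1 rose and 4 fell in frontal cortex. The part of any of these cell markers in the vessel genes was not tested.

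Across the 15 libraries, the log2 CPM of 15202 genes that averaged 1 CPM or more was compared with the mean z-score of the 7 endothelial members. The closest were Mapk11, Prm2, Arc, Smcp and Fastk (Pearson r 0.988 to 0.990). For the 3 pericyte members Fkbp1a, Plppr4, Prkcb and Syt1 were among the closest (r 0.996 to 0.997). None of those named is on a vessel list. The 15 points are 4 groups of near-identical libraries and share their group means, so these values describe the order of the groups and little else.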

How the data were processed

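Frontal cortex and cerebellum of Upf3b-KO and Ctrl mice were profiled by RNA-seq (16 libraries, 4 groups of 4, grouped by their labels). The authors removed ribosomal RNA, built SMART-Seq libraries, aligned paired reads to GRCm39 with STAR 2.5.2b and deposited RSEM's expected counts for each transcript, neither scaled nor filtered. RSEM divides reads among similar transcripts, so single isoforms and paralogs are less certain than sums, and strand use is not given in the sources used here.

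Of 142435 transcripts, 141102 matched GENCODE vM39 (GRCm39, another release) and held 99.4% of the counts. Counts were summed per symbol, rounded, filtered (filterByExpr, minimum count 10, total 15), scaled by TMM and tested with edgeR 4.0.16 (R 4.3.3, limma 3.58.1) by the quasi-likelihood F test, adjusted over all features. DESeq2 1.42.0 was an alternative. Tissues were fitted apart, and tissue differences and the interaction over 15 libraries. CPM used library totals. Depth was 27660078 to 35238677 counts, except for the library with 64981, which was left out. Code was tested on simulated counts. Python 3.11.15 was used for tables and scipy 1.17.1 for exact tests.

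Members and lists were chosen with earlier results of these data known. The genes named from each of the other vessel lists were up to 4 with the smallest adjusted p in either tissue and any that passed at over 2-fold. Lists of other cells were given mainly as sets, and only some of their genes that met this rule were named. Cdh5, Slc2a1, Vegfa and Pdgfb were named for their role after their values were seen. One gene that the rule for likeness to the members would name is not reported here.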

Additional observations from a re-analysis of the deposited data

Results flagged for a closer look

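In Ctrl cerebellum, Abcb1a was at 22.78 CPM in library 1, far from the other 3 (21.2 to 21.4 CPM) by Dixon's criterion for 4 values. This was 1 of 30 combinations of member and group tested, and chance flags about 1 in 20. Its cause was not tested.

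The genotype difference differed between tissues for 3 members by the interaction test (edgeR): Pdgfrb at -0.33, Rgs5 at 0.58 and Vtn at -0.46 on the log2 scale, cerebellum minus frontal cortex. The 3 kept an adjusted p under 0.05 in all 15 fits that left out a library.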

How the results depend on the processing

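Counts of members that passed were within 1.5 times of those reported under DESeq2, median-of-ratios scaling, either filter, the shallow library included, other libraries in the fit and, chosen after seeing the data, library totals in place of TMM, under which all 10 passed in each tissue. Member transcripts moved more: with library totals 5 passed in frontal cortex against 8, and with the shallow library included 2 passed in cerebellum against 7. At the study's thresholds 0 members passed in any of the 5 comparisons, 0 member transcripts in either tissue, and other vascular genes numbered 5 (frontal cortex) and 11 (cerebellum), where 47 and 56 passed at an adjusted p under 0.05. With the replicate number as a block (replicate block), 8 members passed in frontal cortex and 8 in cerebellum, as without it, 6 transcripts in frontal cortex against 8 (without Flt1-202 and Rgs5-201) and 2 in cerebellum against 7 (Rgs5-201 and Vtn-201). Correlations of deviations between same-numbered libraries lay between -0.139 and 0.234 over all group pairs. The main fits therefore did not take the numbers as pairing them. For the tissue differences and the interaction, the block took same-numbered libraries of a genotype as the same animal.

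Leaving out 1 library at a time gave 7 to 8 members passed in frontal cortex, 8 to 9 in cerebellum, 8 to 10 for either tissue difference and 3 for the interaction, 41 to 45 and 52 to 56 other vascular genes, and 6 to 8 and 5 to 7 transcripts. Of the values of single members under the alternatives, 941 kept direction and side of the threshold, 24 gained and 6 lost it, and 9 changed sign. All 9 were interactions near 0: Flt1 ranged from -0.014221 to 0.0666 over the leave-one-out fits and was -0.00029689 with library totals, Slco1a4 ranged from -0.013276 to 0.065806, and Pecam1 from -0.073615 to 0.014065. The cause was not tested. Depth limits no member in the 15 libraries, all at 376 counts or more. In the shallow library 3 counts equal 46.2 CPM, above the level of most members.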
